A study of Mus musculus with 20 samples.

Results

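The HoxA cluster of the mouse was read here as 363 bins of 100 bp, all bins of the deposited genome-wide table in a 120 kb interval of chromosome 6 around the Hoxa genes (mm10; the first bin starts at 52150700 and the last ends at 52266799), out of 1201951 bins in the series. The rule for the interval uses position alone, and the cluster was chosen with earlier results of these data known. DNA methylation was measured by reduced representation bisulfite sequencing (RRBS), which reads short fragments cut at MspI (CCGG) sites, in hematopoietic stem cells (HSCs) from 20 samples. The treated mice received low-dose 5-fluorouracil (5FU), a drug that kills dividing blood progenitors and drives stem cells into the cell cycle. It was injected intraperitoneally at 150 mg/kg every 3 weeks. Untreated mice (0x) gave 4 samples, and mice with 2 (2x), 4 (4x) and 10 (10x) injections gave 6, 4 and 6 samples. Per the study's methods all animals were female C57BL/6J mice aged 3 months at the start, and HSCs (PI-Lin-cKit+Sca1+CD34-Flk2-CD150+) were sorted from bone marrow 1 month after the last injection, whereas the sample labels name the tissue as blood and the genotype as C57BL/6. Whether every sample came from its own mouse is not given in the labels. The p-values below therefore measure only how far these samples differ, which may in part be technical. In a sorted population a shift in the make-up of the cells and a change of methylation within each cell cannot be told apart.

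Hox genes encode homeodomain transcription factors that give cells a position along the body axis in the embryo. In blood, genes of the HoxA cluster are active in HSCs and are switched down as cells mature, and Hoxa9 and Hoxa10 in particular promote stem cell self-renewal and are overexpressed in leukemia. The genes lie in the order of their numbers and all on the minus strand. The cluster is rich in CpG islands, which are kept free of methylation by the Polycomb and Trithorax systems in many cell types.

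The reference annotation (RefSeq, GRCm38.p6) placed transcription start sites (TSSs) of 11 protein-coding Hoxa genes and of 13 noncoding genes in the interval. Hoxa9 started at 52227370, and Hoxa10 at 52234939 and at 52240854. Hoxa3 had 5 annotated starts, of which 2, at 52211162 and 52213067, lay between Hoxa6 and Hoxa7. Each bin was given to the Hoxa gene with the nearest TSS.

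The sequences below show 8 of the bins. They were taken from the bins outside untranslated exons that stood apart in a comparison, together with a bin of Hoxa9 and a bin of Hoxa10, where methylation was low in every group. They are the plus strand of the reference, 5′ to 3′, with each CpG in capitals, so the number of capital pairs is the number of sites a bin could report.
Hoxa3 intron, chr6:52185500-52185599: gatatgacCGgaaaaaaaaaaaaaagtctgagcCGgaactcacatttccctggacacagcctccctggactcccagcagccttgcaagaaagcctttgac
Hoxa4 coding exon, chr6:52190500-52190599: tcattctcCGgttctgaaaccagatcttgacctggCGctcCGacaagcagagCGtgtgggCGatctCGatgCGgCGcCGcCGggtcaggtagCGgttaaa
Hoxa5 coding exon, chr6:52204200-52204299: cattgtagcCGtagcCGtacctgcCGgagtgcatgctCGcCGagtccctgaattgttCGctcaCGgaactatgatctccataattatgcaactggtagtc
Hoxa6 coding exon, chr6:52208200-52208299: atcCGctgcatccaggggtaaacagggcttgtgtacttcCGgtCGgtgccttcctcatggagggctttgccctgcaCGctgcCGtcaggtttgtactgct
Hoxa9 coding exon, chr6:52226200-52226299: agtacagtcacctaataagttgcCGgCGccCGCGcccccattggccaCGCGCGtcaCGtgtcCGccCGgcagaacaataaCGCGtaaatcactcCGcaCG
Hoxa10 intron, chr6:52233400-52233499: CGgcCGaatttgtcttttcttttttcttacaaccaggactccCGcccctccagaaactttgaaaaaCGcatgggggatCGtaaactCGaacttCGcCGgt
Hoxa11 intron, chr6:52244600-52244699: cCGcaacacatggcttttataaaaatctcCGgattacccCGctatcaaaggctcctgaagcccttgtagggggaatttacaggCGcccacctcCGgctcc
Intergenic, nearest Hoxa13, chr6:52253900-52253999: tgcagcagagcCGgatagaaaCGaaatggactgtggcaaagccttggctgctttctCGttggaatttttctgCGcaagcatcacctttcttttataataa
The Hoxa3 bin held 2 CpGs and the Hoxa9 bin 14, and each of the 8 held at least 1 CCGG site.

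The deposited percentages differed in kind between bins, and this set what could be compared. In the authors' files a bin not measured in a sample carries the mean of its group, so that a value other than 0 or 100 recurring within a group marks a filled bin. Of the 363 bins, 144 held such a repeated value in at least 1 group. A further 139 held no repeated value but had at least 1 group in which all samples read 0 or all read 100. Of these 139 bins, 75 had the same value in all 20 samples, 52 of them at 0 and 23 at 100. In the other 80 bins every group varied and nothing was repeated, and these carry the results below unless another set is named. This class made up 7.0% of the bins of the whole series, 84131 in number. Filled values that can be recognised were most frequent in 2x, where 88 of the 363 bins held one, against 51 bins for 0x, 40 for 4x and 74 for 10x. A fill in only 1 sample of a group cannot be recognised, nor can a fill at 0 or 100 in any number of samples. The 139 bins with a constant group may therefore hold filled values in unknown number. No read numbers are given, so the depth behind each percentage is unknown.

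**Figure D1:**
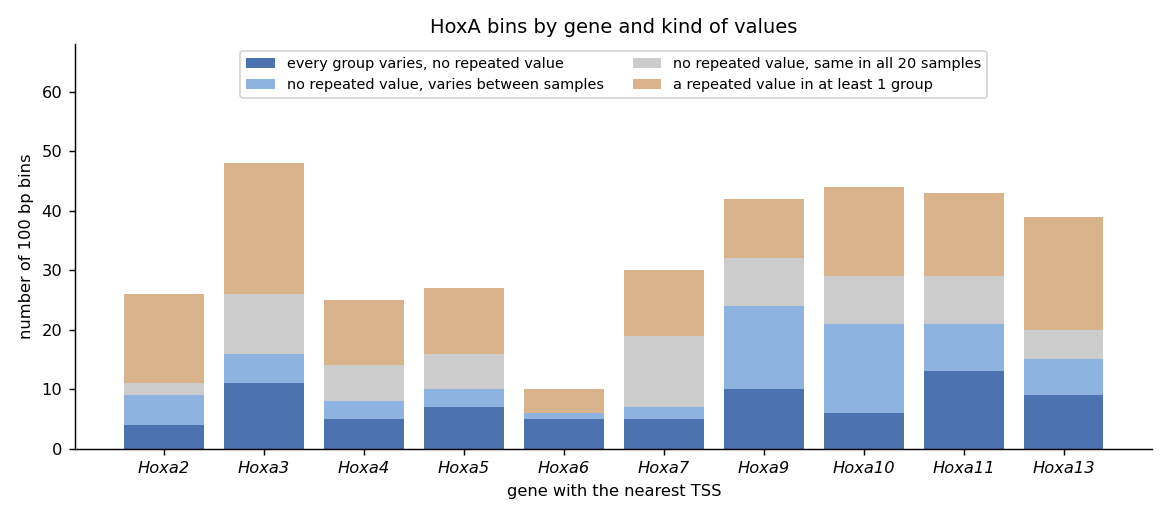
Number of 100 bp bins (vertical axis) given to each Hoxa gene by its nearest TSS, split by the kind of values they hold. Hoxa3 had the most bins (48) and Hoxa6 the fewest (10), and Hoxa11 the most bins in which every group varied (13).

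Methylation divided into 2 stretches along the cluster. From Hoxa2 to Hoxa6 the usable bins alternated between methylated and unmethylated DNA, and 21 of 32 bins had a mean of at least 20% over all samples. From Hoxa7 to Hoxa13 only 3 of 43 bins did. The boundary was placed after the values were seen. The same contrast held when bins with constant groups were kept (47 of 73 bins against 6 of 129) and over all deposited bins (92 of 136 against 19 of 198). The 3 methylated bins of the second stretch touched each other in the Hoxa11 gene, at 52244400 to 52244699, with means of 27.3% to 46.7%.

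**Figure D2:**
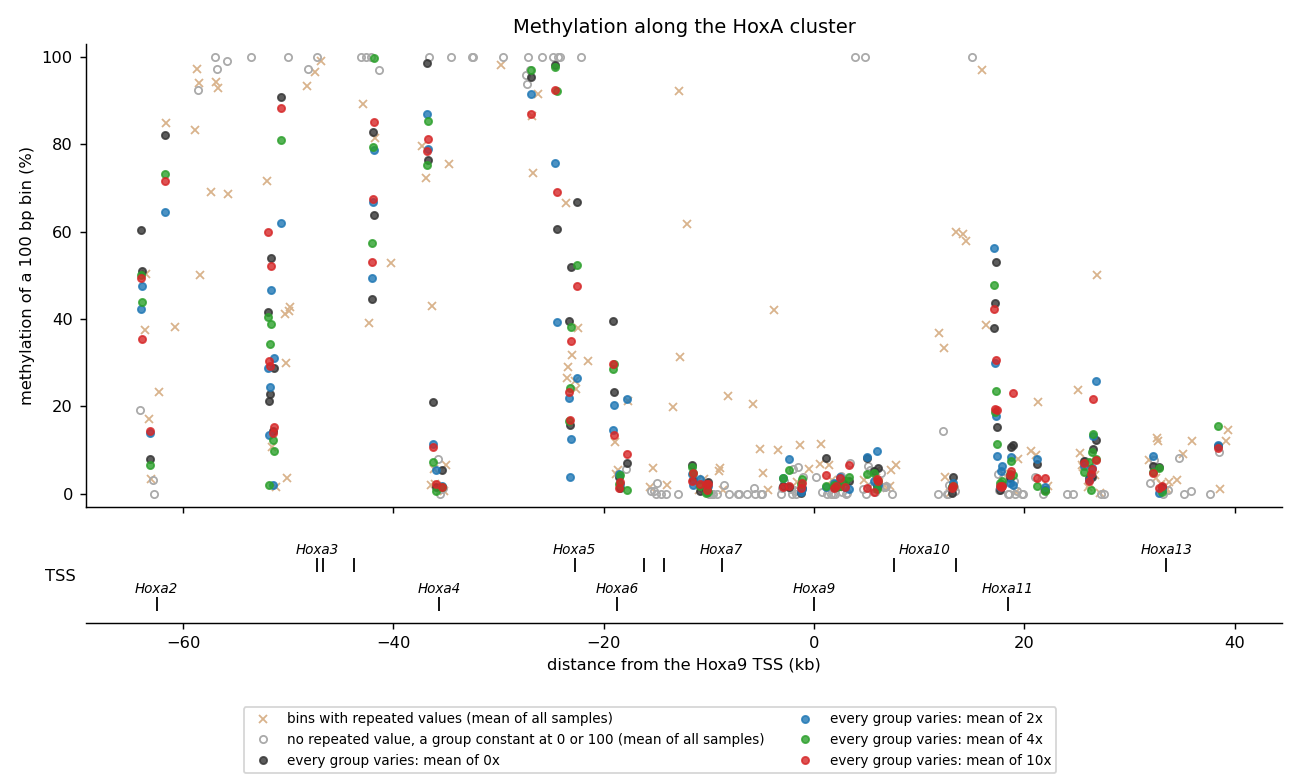
Percent methylation of the HoxA bins (vertical axis) against their distance from the Hoxa9 TSS in kb, with the group means of 75 bins in which every group varied and the mean of all samples for the others, and with TSSs marked underneath. Methylated bins crowd to the left of Hoxa7, and the bins around Hoxa9 lie near 0 in all 4 groups.

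Among genes, the untreated samples showed the highest mean over the bins of Hoxa5 (61.2% ± 10.3, SD, n = 4; 7 bins), followed by Hoxa2 (50.4% ± 3.97; 4 bins), Hoxa3 (42.9% ± 10.9; 11 bins) and Hoxa4 (40.6% ± 4.00; 5 bins). Hoxa6 and Hoxa11 were intermediate, at 14.96% and 14.95%. Hoxa13 (6.51%), Hoxa10 (4.13%), Hoxa9 (2.37%) and Hoxa7 (1.72%) made up the unmethylated end. In this order the ranges of untreated samples overlapped between every pair of neighbours except Hoxa4 and Hoxa6. Of the bins without repeated values and with 1 value in all samples, the 12 of Hoxa7 and the 8 of Hoxa9 all stood at 0. The 6 of Hoxa5 all stood at 100, and of the 8 of Hoxa10, 5 stood at 0 and 3 at 100.

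Methylation was also described by sequence context, which was not compared with position on a common scale. Over the 80 bins the number of CpGs in a bin (median 6, range 1 to 22) and its mean methylation had a Pearson's r of -0.249 and a Spearman's rho of -0.340, as a description across bins that share their libraries. Of these bins 75 held a CCGG site. Bins that touched differed by a median of 4.11 percentage points over 29 pairs, and only 3 pairs differed by more than 20. Coding exons (26 bins) had a mean of 23.7% in 0x, introns (23 bins) 26.1%, exons of untranslated regions (10 bins) 29.8%, noncoding RNA genes (15 bins) 11.6% and intergenic DNA (6 bins) 6.87%.

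The spread between samples was wide where methylation was intermediate. For the 19 bins with a mean between 20% and 80%, the median SD of a bin within a group was 21.0 points for 0x, 28.3 for 2x, 21.6 for 4x and 11.1 for 10x. For the 44 bins under 10% it was 2.86, 4.13, 2.71 and 2.80 points. In 24 bins some group ranged over more than 50 points.

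Against the rest of the series, HoxA was poorly methylated. The median of its 80 bins was 6.32%, compared with 58.8% over all 84131 bins of the same class, and 55.0% of its bins lay below 10% compared with 36.4%. Over the same class the whole series averaged 49.4% in 0x and was higher by 0.416, 0.823 and 1.222 points in 2x, 4x and 10x. The other Hox clusters were low as well, with medians of 6.15% (HoxB), 9.13% (HoxC) and 7.74% (HoxD). HoxB differed from its 0x mean by 0.676, 0.606 and 0.104 points in the 3 treated groups, HoxC by 3.066, 3.505 and 4.085 points and HoxD by 0.182, 0.416 and 1.54 points. With constant groups kept the 2x difference was -2.18 points in HoxA, -0.739 in HoxB, -0.354 in HoxC and 0.000976 in HoxD. The 10x difference of HoxB was then -0.128 points. Over all deposited bins every cluster was lower in 2x, by -2.05 points in HoxA, -1.05 in HoxB, -1.04 in HoxC and -0.396 in HoxD. Differences between clusters were not tested.

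The HoxA mean of each sample was then compared between the untreated and the treated groups. The 4 untreated samples averaged 20.8%, 24.2%, 19.1% and 22.3% (mean 21.6% ± 2.20). The 2x samples ranged from 15.7% to 19.2% around a median of 17.7% (mean 17.6% ± 1.26, n = 6), so that only the highest 2x sample reached the lowest untreated one. The 4x samples stood at 19.3%, 24.2%, 20.5% and 15.9% (19.97% ± 3.40), and the 10x samples between 17.6% and 22.3% with a median of 19.2% (19.8% ± 1.77). The differences from 0x were -4.04, -1.64 and -1.85 points. The 3 comparisons share the untreated samples. In each of them 46 of the 80 bins (57.5%) had a lower mean than in 0x, whereas 48.1%, 46.4% and 44% of all bins in the series did, and the median difference of the HoxA bins was -1.06, -0.681 and -0.406 points against 0.179, 0.320 and 0.509 over all bins.

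The 2x difference lay in the Hoxa2 to Hoxa6 stretch. Its 32 bins averaged 45.5%, 45.2%, 39.2% and 42.6% in the untreated samples, and the 2x samples ranged from 31.97% to 36.2% with a median of 34.8%, so the groups did not overlap, at a difference of -8.90 points. The 4x samples (38.2%, 47.1%, 42.7% and 33.1%) and the 10x samples (35.4% to 44.2%, median 39.8%) overlapped with the untreated ones, at differences of -2.85 and -3.42 points. The Hoxa7 to Hoxa13 stretch averaged 7.21% ± 2.64 for 0x, 6.68% ± 2.89 for 2x, 5.83% ± 1.9 for 4x and 6.31% ± 1.25 for 10x, and all groups overlapped. The sample labels carry running numbers that fall in a lower and a higher series, which the labels do not call batches. Within the lower series the Hoxa2 to Hoxa6 stretch differed by -10.6 points in 2x (2 samples a group) and within the higher by -6.96 points (2 untreated and 4 treated samples). Lack of overlap within either series follows from that over all samples. In 10x the stretch differed by -8.57 points without overlap in the lower series and by 0.269 points with overlap in the higher. For the whole cluster the 2x difference was -6.38 points in the lower series, where the groups did not overlap, and -2.40 in the higher, where they did. In the 2 series the cluster differed by -0.818 and -2.46 points in 4x, with overlap, and by -4.26 (without overlap) and -0.186 points (with overlap) in 10x. With bins kept in which a group was constant, the stretch differed by -4.41 points in 2x without overlap, but the 41 bins so added differed by only -0.896 points, with overlap. No test was made of these means, since they are scores over bins chosen with the data known.

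All 5 genes of the stretch had a lower mean in 2x than in 0x, by -8.33 points at Hoxa2, -5.85 at Hoxa3, -3.70 at Hoxa4 and -2.34 at Hoxa6, with overlap between the groups at each of these 4. The difference was widest at Hoxa5, the gene with the highest untreated level, which encodes a homeodomain factor often methylated in leukemia. Its 7 bins averaged 52.4%, 75.4%, 55.2% and 61.6% in the untreated samples. The 2x samples ranged from 33.01% to 43.00% (median 39.9%, mean 38.7% ± 4.43), all below the lowest untreated sample. Each of the 7 bins had a lower mean in 2x than in 0x, by 3.88 to 40.4 points. The 4x samples gave values of 49.2% to 73.6% and the 10x samples of 42.1% to 68.4%, both overlapping with 0x. Of the 11 Hoxa genes and 3 comparisons, Hoxa5 in 2x was the only case without overlap between the groups in these bins. How often other genes of the series lack overlap was not determined, so this count does not set Hoxa5 apart. Within the lower and the higher series of label numbers the Hoxa5 difference in 2x was -23.5 and -20.5 points. Lack of overlap within either series follows from that over all samples and adds nothing to it. The other 9 Hoxa5 bins without repeated values, in which some group was constant, averaged 97.3% for 0x and 98.8% for 2x, higher by 1.46 points with overlap.

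The share of values at exactly 0 was highest in 2x in both stretches. In the Hoxa7 to Hoxa13 stretch, where the 2x mean differed by -0.530 points with overlap, 53.5% of the 2x values were 0. The shares there were 36.0% for 0x, 33.7% for 4x and 29.5% for 10x. In the Hoxa2 to Hoxa6 stretch 27.1% of the 2x values were 0, compared with 12.5% of the 0x values, 12.5% of the 4x values and 6.25% of the 10x values. Among the values strictly between 0 and 100 the stretch averaged 40.8% in 0x and 37.0% in 2x, a smaller gap than over all values. At Hoxa5 the share at 0 was 23.8% in 2x and 10.7% in 0x, and the values between 0 and 100 averaged 31.6% in 2x and 56.3% in 0x. The part of these 0 readings in the result was not tested.

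**Figure D3:**
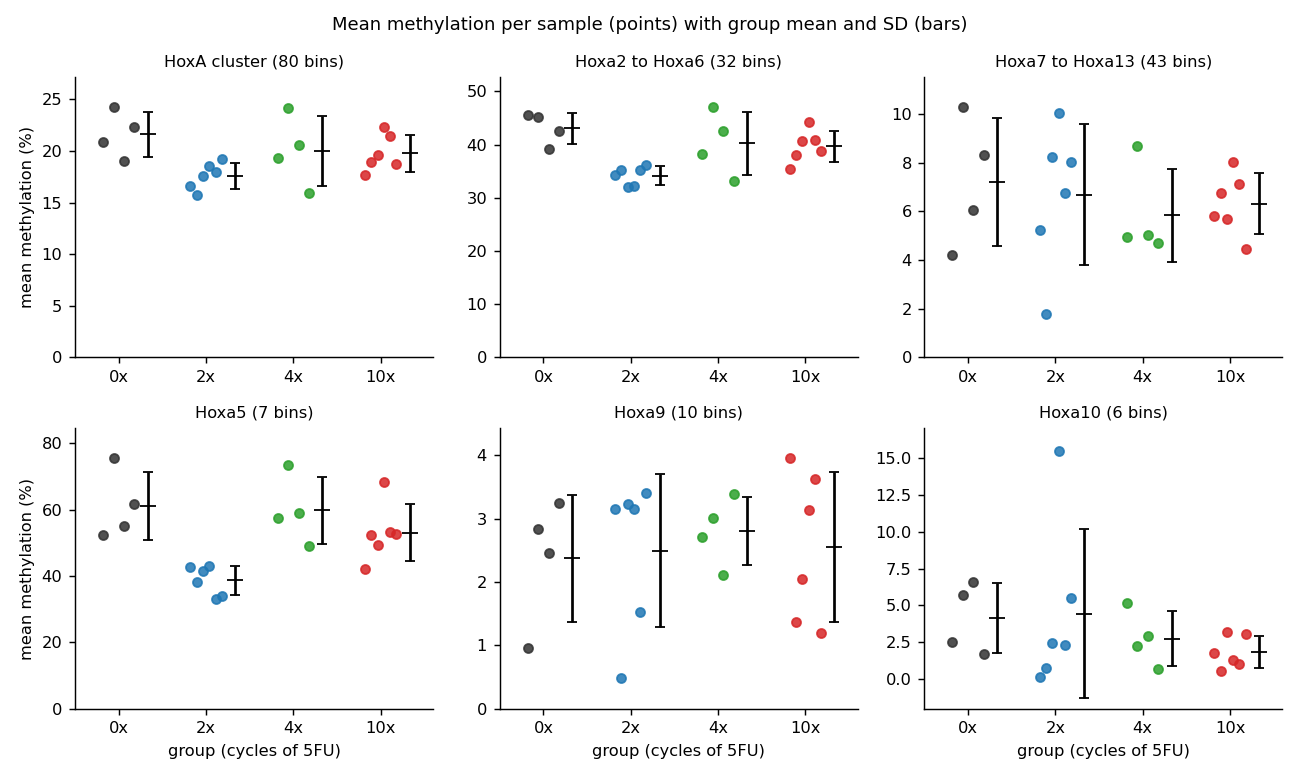
Mean percent methylation of each sample (points) over the bins of the cluster, its 2 stretches and Hoxa5, Hoxa9 and Hoxa10, with group means and SD (bars). The 2x samples lie below all untreated samples in the Hoxa2 to Hoxa6 stretch and in Hoxa5, and all groups overlap in the Hoxa7 to Hoxa13 stretch, Hoxa9 and Hoxa10.

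In the bins in which every group varied, Hoxa9 and Hoxa10, the members best known from HSC biology, stayed low in methylation in every group. The 10 bins of Hoxa9 averaged 2.37% ± 0.998 for 0x, 2.49% ± 1.20 for 2x, 2.80% ± 0.537 for 4x and 2.55% ± 1.18 for 10x. The groups overlapped throughout, and the differences of 0.119, 0.433 and 0.179 points were smaller than the SD of any group. The largest difference of a single Hoxa9 bin from 0x was 6.62 points in size, in 2x, and the smallest unadjusted p in limma over its bins, the 3 comparisons and the slope was 0.138. No bin in which every group varied lay within 1 kb of the Hoxa9 TSS. Of the 2 bins there without repeated values, the one at 52227500 read 20%, 0%, 42.1% and 0% in the untreated samples, 0% in all 2x samples, at most 6.17% in 4x and at most 2.90% in 10x. With bins kept in which a group was constant (32 bins), Hoxa9 averaged 0.895% ± 0.334 in 2x against 2.42% ± 0.985 in 0x without overlap, which was not seen in the 10 bins. Here too, how often other genes of the series lack overlap was not determined. The 2x group was also the one most often constant at 0, in 99 bins of HoxA without repeated values, compared with 74 bins for 0x, 69 for 4x and 70 for 10x.

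The 6 bins of Hoxa10 averaged 4.13% ± 2.37 for 0x, 4.45% ± 5.72 for 2x, 2.75% ± 1.85 for 4x and 1.83% ± 1.08 for 10x, and all groups overlapped. They are 6 of the 44 bins given to Hoxa10. Of 8 further bins without repeated values and with 1 value in all samples, 5 stood at 0 and 3 at 100. A single 2x sample at 15.5% set the 2x mean, the other 5 lying between 0.129% and 5.48%. The smallest unadjusted p of a Hoxa10 bin was 0.0249 in 10x, at 52232400 in an untranslated exon, where the mean was 8.15% in 0x and 1.37% in 10x, and its adjusted p in limma was 0.709. The bin near a Hoxa10 TSS with the largest 10x difference, at 52240500, read 8.70%, 6.51%, 0% and 0% in 0x and between 0% and 5.00% in 10x, a difference of -1.98 ± 2.07 points (SE, adjusted p = 0.864 in limma). The promoter of Mir196b, a microRNA gene between Hoxa9 and Hoxa10, averaged 2.18%, 2.10%, 2.40% and 2.89% over 5 bins in 0x, 2x, 4x and 10x.

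Single bins were tested with limma over all 84131 bins, and a bin was called at an adjusted p under 0.05 where the means differed by 10 points or more. No HoxA bin was called in any comparison. Such calls were rare throughout the genome, at 0.00238% of bins higher and 0.00119% lower in 2x, 0.00357% higher and 0.00357% lower in 4x, and 0.00713% higher and 0.00594% lower in 10x. For a slope with the number of injections, 0% of all bins were called upwards and 0.00119% downwards. The smallest adjusted p in HoxA was 0.723 for 2x, 0.113 for 4x, 0.494 for 10x and 0.975 for the slope.

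At an unadjusted p under 0.05 in limma with at least 10 points, 2x showed 0 higher and 5 lower HoxA bins of 80, where 1.84% and 1.02% of all bins met the rule. In 4x 1 bin was higher and 3 were lower (1.81% and 1.04% of all bins), and in 10x 2 were higher and 4 lower (2.9% and 1.28%). No HoxA bin had a slope with an unadjusted p under 0.05, which 2.26% of all bins had upwards and 1.29% downwards. Bins whose groups did not overlap, with at least 10 points, numbered 0 higher and 0 lower in 2x (0.289% and 0.169% of all bins), 1 and 1 in 4x (0.789% and 0.427%) and 1 and 1 in 10x (0.585% and 0.246%). None of these counts passed the correction for multiple testing.

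**Figure D4:**
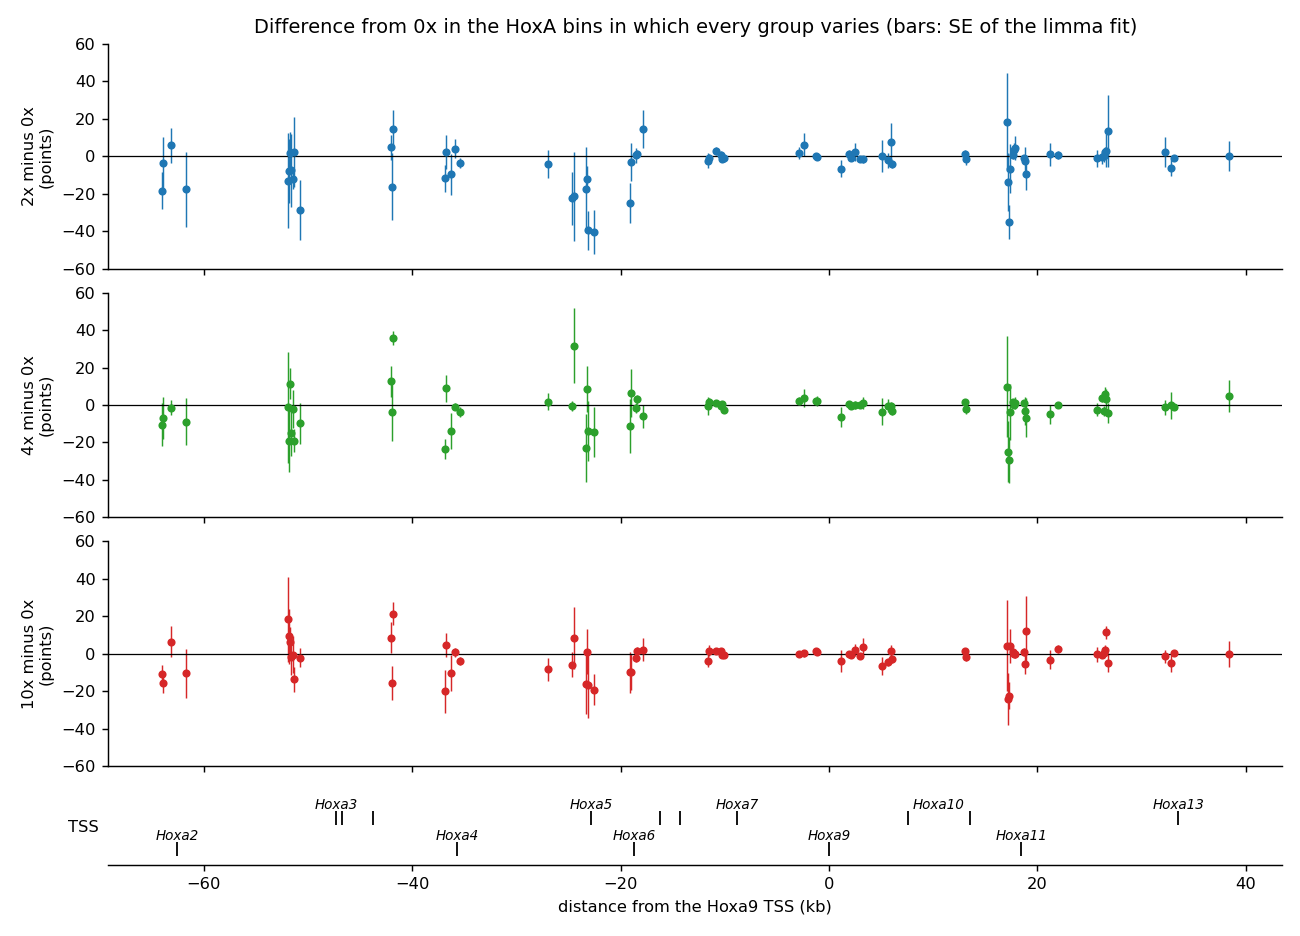
Difference of each treated group from 0x in percentage points (vertical axis) with the standard error of limma (bars), for 75 HoxA bins in which every group varied, against distance from the Hoxa9 TSS in kb. Differences beyond 20 points are found in the Hoxa2 to Hoxa6 stretch and at Hoxa11, and the bins of Hoxa9 stay within 6.62 points of 0.

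The bin nearest to a call was in an intron of Hoxa3, a gene needed for the thymus and parathyroid, at 52185500 to 52185599, where the noncoding gene LOC115490409 also runs. Its untreated samples read 74.8%, 60.4%, 61.7% and 58.6%, and its 4x samples 98.9%, 100%, 100% and 100%. Every 4x sample was above every untreated one, by a mean of 35.9 ± 3.596 points (SE, adjusted p = 0.113 in limma). The 2x samples ranged from 46.9% to 100% (median 77.2%) and the 10x samples from 66.2% to 97.1% (median 86.3%, 21.4 ± 5.99 points above 0x, adjusted p = 0.494 in limma), and both overlapped with 0x. This bin passed the threshold in 4x without the untreated sample numbered 01 (39.5 points, adjusted p = 0.00545 in limma). It also passed in the larger set that keeps bins with a constant group (adjusted p = 0.00380 in limma), where 0.633% of all bins were called higher in 4x. Its 2 CpGs are the fewest among the sequences printed above.

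The opposite direction was seen in the coding exon of Hoxa4, at 52190500 to 52190599 with 11 CpGs. The untreated samples read 100%, 94.8%, 100% and 100%, and the 4x samples 84.8%, 83.7%, 62.2% and 70.7%, without overlap and 23.3 ± 5.23 points lower on average (adjusted p = 0.952 in limma). The 10x samples were scattered from 39.5% to 100%, with a median of 82.5%.

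At Hoxa5 and Hoxa6 the lowest values belonged to 2x. The Hoxa5 coding bin at 52204200 read 22.5%, 71.6%, 51.5% and 62.1% in 0x and 0% to 35.4% in 2x (median 7.29%), a difference of -39.4 ± 10.5 points (SE, adjusted p = 0.784 in limma). Its 10x samples covered 10.0% to 100%, and so reached beyond the untreated samples on both sides. The bin at 52204800, upstream of Hoxa5 and inside an untranslated exon of Hoxa6, read 52.5%, 60.4%, 54.8% and 100% in 0x and 0% to 54.5% in 2x (-40.4 ± 11.8 points, adjusted p = 0.945 in limma). In 10x this bin held a narrow 42.5% to 51.5%, all below the untreated samples (-19.3 ± 8.37 points, adjusted p = 0.789 in limma). In the Hoxa6 coding bin at 52208200 the untreated samples read 21.4%, 36.8%, 30.3% and 69.6% and the 2x samples 0% to 40% with a median of 11.7%, so that the groups overlapped.

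The methylated patch of Hoxa11, a gene for limb and kidney patterning, held 2 bins with a lower mean in each of the 3 treated groups than in 0x. At 52244600, in its intron, the untreated samples read 46.8%, 78.1%, 51.8% and 35.3%. The 2x samples ranged from 7.21% to 42.4% (median 14.4%), the 4x samples were at 11.9%, 50.2%, 5.74% and 26.3%, and the 10x samples ranged from 23.6% to 40.8% (median 29.6%). The group means lay below 0x by a mean difference of -35.2 ± 8.99, -29.5 ± 12.2 and -22.5 ± 7.22 points, with adjusted p of 0.723, 0.975 and 0.592 in limma, and each treated group overlapped with 0x. In the touching bin at 52244500 one untreated sample at 94.1% stood far above the other 3 (19.6% to 40.4%), the treated groups differed from 0x by -13.7, -25.0 and -24.3 points, and the slope of -1.93 points per injection did not pass (adjusted p = 0.975 in limma). The third bin of the patch, at 52244400, had higher means in the treated groups (56.3%, 47.8% and 42.3%) than in 0x (37.9%).

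Toward the Hoxa13 end, an intergenic bin at 52253900, 6930 bp from the Hoxa13 TSS, read 14.6%, 0%, 13.1% and 12.8% in 0x and 14.7% to 29.9% in 10x (median 20.9%). All 10x samples lay above the untreated ones, by a mean of 11.4 ± 3.55 points (adjusted p = 0.572 in limma). The 2x samples, at 0% to 42.9%, covered both groups. The coding exon of Hoxa2, a hindbrain patterning gene, had a pair of touching bins at 52163300 and 52163400 that were lower in 10x by a mean difference of -11.0 and -15.4 points (adjusted p = 0.793 and 0.711 in limma). A bin in an untranslated exon of Hoxa3, at 52175900, averaged 14.4% in 0x and 2.06% in 2x, and the next bin averaged 28.8% in 0x and 9.84% in 4x. The bins at Hoxa2, Hoxa6, the Hoxa5 coding exon, the Hoxa3 untranslated exon and 52244600 were singled out after their values were seen.

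**Figure D5:**
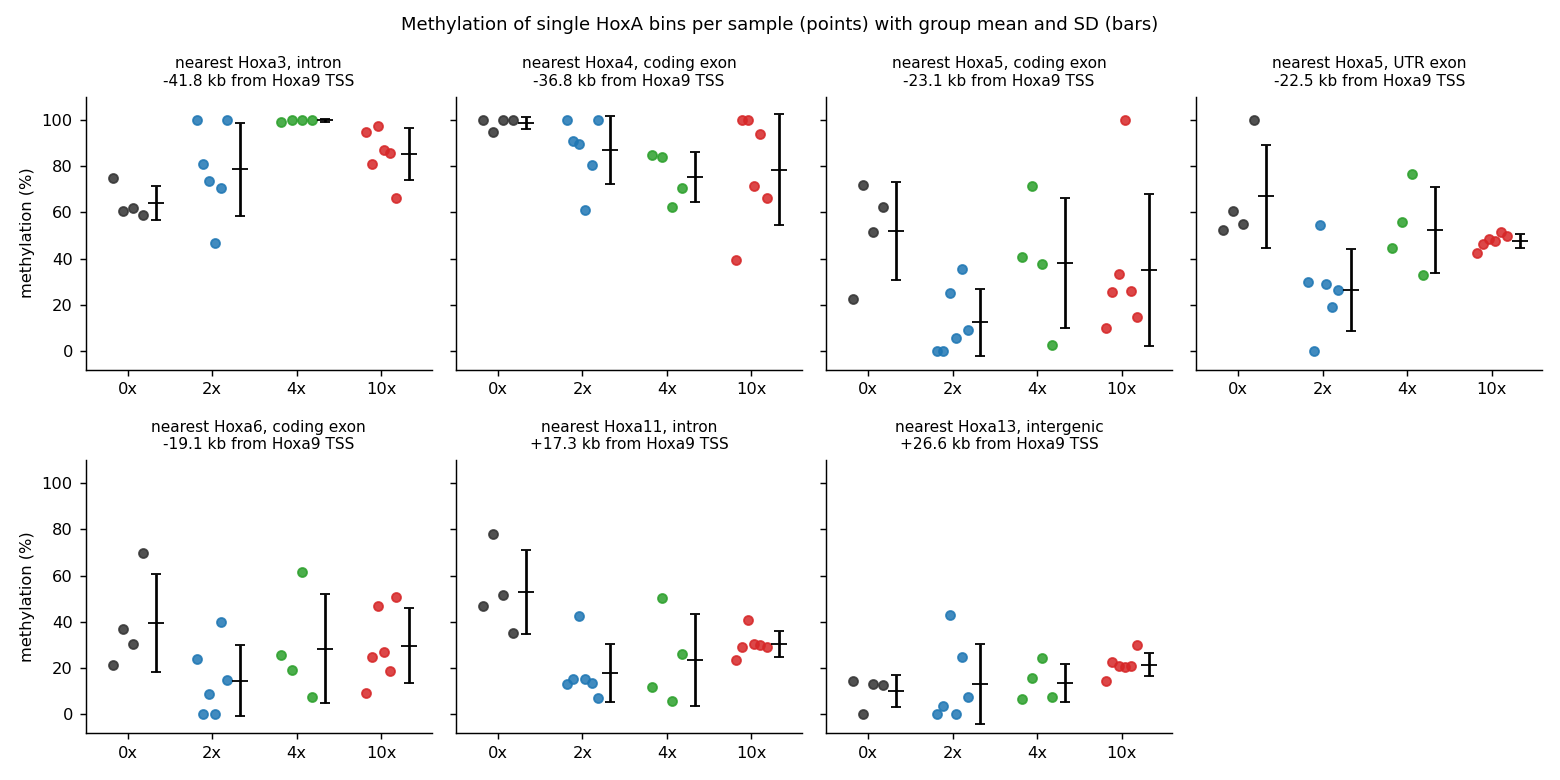
Percent methylation of 7 single HoxA bins in each sample (points) by group, with group mean and SD (bars), each titled by the Hoxa gene with the nearest TSS and the distance from the Hoxa9 TSS. The 4x samples of the Hoxa3 bin sit at 98.9% to 100%, above all untreated samples, and the 2x samples of the Hoxa5 and Hoxa11 bins sit mostly below the untreated ones.

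Promoters, taken as the mean of the bins within 1 kb of any TSS of a gene, were tested over 14833 genes. In this fit 0% of genes were called in 2x, 4x and for the slope, and 0.0202% in 10x, none of them among the 16 genes of the HoxA interval that had such bins. The Hoxa5 promoter (4 bins) averaged 43.5% ± 18.05 in 0x and 16.2% ± 11.3 in 2x, the largest 2x difference in size among the Hoxa promoters (-27.4 ± 8.52 points), and did not pass the test (adjusted p = 0.9998 in limma).

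The bins with repeated values are given apart, since a filled value is not a measurement of that sample and shrinks the spread that the test relies on. Over all 701483 deposited bins that varied, 281 of them in HoxA, 2x gave 32 calls in HoxA (15 higher and 17 lower), where 7.43% of all bins were called higher and 6.61% lower. In 4x 15 were called (7 higher, 8 lower, against 5.61% and 4.35% of all bins), in 10x 13 (7 higher, 6 lower, against 6.86% and 3.95%) and for the slope 14 (9 higher, 5 lower, against 4.31% and 4.92%). The HoxA shares of 11.4%, 5.34%, 4.63% and 4.98% lay below the summed background in every case. Of these calls 29, 13, 13 and 13 fell on bins with repeated values. In 24 of the 29 calls in 2x a compared group held 1 value throughout, as in all 13 calls of 4x and all 13 of 10x.

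Some of these bins went from one end of the scale to the other. The Hoxa3 exon bin at 52177100 read 100% in all 4 untreated and 0% in all 6 2x samples, while the Hoxa3 intron bin at 52187100 read 0% and 100%, the reverse. The Hoxa9 exon bin at 52223500, which holds 1 CpG, read 0% in 0x, 100% in 2x and 19.05% in every 10x sample. In the Hoxa10 bin at 52239200 all untreated samples read 4.48% and all 10x samples 100%. How many samples were measured at these bins cannot be read from the files.

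The partners of the cluster were read at their promoters with lists of genes chosen by function. All 9 HOX cofactors of the list (the Meis, Pbx and Pknox families, which bind DNA together with Hox proteins) had promoter bins, and none was called in any comparison. Their median 10x difference was -0.0388 points, and the largest in size was at Meis1, with means of 6.35%, 0.605%, 8.28% and 1.51% from 0x to 10x (adjusted p = 0.861 in limma). Meis3 averaged 1.79% in 0x and 4.83% in 10x, and Pbx2 5.43% and 3.43%. Of 18 genes that regulate Hox clusters, from the Trithorax side (such as Kmt2a and Men1), the Polycomb side (such as Ezh2 and Suz12) and the Cdx family, 17 were measured and none was called, with a median 10x difference of 0.395 points. Cdx4, with 1 bin, had the widest 10x difference (adjusted p = 0.864 in limma), with means of 67.0%, 28.9%, 89.9% and 45.9% from 0x to 10x. Its untreated samples ranged from 27.1% to 100%. Next came Cdx1 (37.3%, 22.2%, 30.3% and 29.6%) and Ezh2 (0.590%, 2.48%, 3.03% and 2.79%). Over all promoters the share called was the 0% and 0.0202% given above.

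The series analysed here holds methylation only, so markers of the sorted cells were read by promoter methylation. Kit, the receptor that HSCs carry, averaged 4.78%, 0.775%, 0.164% and 3.36% in 0x, 2x, 4x and 10x, while Ly6a and Slamf1 had no usable bin. Cd34 and Flt3, absent from the sorted cells by protein, were also unmethylated (0.332% and 2.35% in 0x). Kept and excluded markers thus read alike, on 1 bin each, so these values cannot establish the identity of the cells. The myeloid gene Mpo was methylated at 48.3%, 47.6%, 66.4% and 54.3%. None of the 4 lineage markers Ptprc, Itgam, Cd3e and Ly6g was measured.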

How the data were processed

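RRBS libraries of sorted HSCs were trimmed by the authors with Trim Galore 0.4.3 (quality 25), aligned with Bismark 0.23.1 to mm10 and summarised with methylKit 1.22.0 over 100 bp bins with at least 10 reads. The deposited values are percent methylation per bin and sample, with missing bins filled by the group mean. Read numbers are not given, so depth and counting error are unknown and the test of the study's methods, which needs read numbers, was not run.

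Bins were joined to RefSeq GRCm38.p6 (Python 3.11.15, pandas 2.3.3), and of the chromosome 6 bins 99.969% held a CpG at the stated position. Percentages were fitted over all bins of the series with limma 3.58.1 in R 4.3.3 (lmFit and eBayes, Benjamini-Hochberg), each treated group against 0x, and as a slope over all groups. The fit was tested on simulated data. A call needed an adjusted p under 0.05 and 10 points. Named bins were those called, up to 4 per comparison at an unadjusted p under 0.05 and 10 points without overlap, the 3 with the smallest slope p and the largest 10x difference near Hoxa9 and Hoxa10. Of the gene lists at most 3 genes are named, by the size of the 10x difference. Means over bins are descriptions. Alternatives were the set of bins, a log2 ratio scale, a variance trend, the series of label numbers as a block, shared spread and leaving out each sample. The members and lists were chosen with earlier results of these data known. Some items are not reported here, and the bins of 1 gene enter only counts and means over the whole cluster.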

Additional observations from a re-analysis of the deposited data

Results flagged for a closer look

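A sample far from the others of its group by Dixon's criterion was found in 15 of 108 groups of samples, and chance flags about 1 group in 20. Among means, one 4x sample stood at 8.68% in the Hoxa7 to Hoxa13 stretch against 4.69% to 5.02% in the others, and the same sample at 19.9% over Hoxa11 against 5.80% to 8.15%. A 10x sample read 36.2% over Hoxa3 against 46.2% to 49.1%, another 10x sample 3.97% over Hoxa7 against 1.82% to 2.30%, and a 2x sample 15.5% over Hoxa10 against 0.129% to 5.48%.

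Among single bins, the Hoxa3 bin at 52175900 had a 2x sample at 11.4% against 0% to 0.982% and a 10x sample at 50% against 0.467% to 14.1%. The Hoxa3 intron bin at 52185500 had a 4x sample at 98.9% where the others read 100%, and the Hoxa4 bin at 52190500 an untreated sample at 94.8% where the others read 100%. The Hoxa5 bin at 52204200 had a 10x sample at 100% against 10.0% to 33.2%, and the bin at 52204800 an untreated sample at 100% against 52.5% to 60.4%. The Hoxa10 bin at 52240500 had a 2x sample at 11.2% against 0% to 3.10% and a 10x sample at 5.00% against 0% to 1.63%. The Hoxa11 bin at 52244600 had a 2x sample at 42.4% against 7.21% to 15.5%, and the bin at 52253900 an untreated sample at 0% against 12.8% to 14.6%. These values were not explained further.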

How the results depend on the processing

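The count of HoxA bins called was 0 in each comparison and stayed at 0 under the log2 ratio scale, the variance trend, the block on label numbers, a spread shared by all groups and the promoter means. It moved where all deposited bins were used, to 32 in 2x, 15 in 4x, 13 in 10x and 14 for the slope (29, 13, 13 and 13 of them on bins with repeated values), and to 1 in 4x (the Hoxa3 intron bin at 52185500) when bins with a constant group were kept. Leaving out each sample in turn gave 0 to 1 calls in 4x, the 1 being the same bin without the untreated sample numbered 01, and 0 in the other comparisons. The 2x difference of the cluster mean, -4.04 points, was -2.18 with constant groups kept, -2.05 over all deposited bins, -14.4 over the bins of 20% to 80%, -2.22 as a median over bins and -6.38 within the lower series of label numbers. The 4x difference, -1.64 points, was -6.31 over the bins of 20% to 80%, and the 10x difference, -1.85, was -7.55 over those bins and -4.26 within the lower series. The cause of these shifts was not tested. The other recomputations moved the means by less than the spread between samples, but several by over 1.5 times. Leaving out each sample in turn gave -4.89 to -3.16 points in 2x, -3.03 (without the 4x sample numbered 06) to -0.287 (without 20) in 4x and -2.70 to -0.980 (without the untreated sample 02) in 10x, and 4x gave -0.764 without that untreated sample and -2.49 without the untreated sample 13. With constant groups kept, 4x and 10x gave -0.541 and -0.229, as medians over bins -0.493 and -0.289, and over all deposited bins -0.584 and 0.0392, so that the 10x difference changed sign. With repeated values set to missing, 10x gave -1.21. Within the higher label series 10x gave -0.186, and within the lower 4x gave -0.818. No paired analysis was possible because the groups share no replicate numbers. Without read numbers, the precision of a single percentage is unknown.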
